A study of Homo sapiens with 6 samples.

Results

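The 10 genes that encode core proteins of secreted matrix proteoglycans were followed in Huh7 cells with and without LHX2: versican (VCAN), the testicans SPOCK1, SPOCK2 and SPOCK3, lumican (LUM), biglycan (BGN), decorin (DCN), agrin (AGRN), perlecan (HSPG2) and aggrecan (ACAN). They make up 10 of the 28265 genes in the deposited table and were found in it by symbol. The set was chosen by gene family with the fold changes of LHX2 over control already known. The members' differences between the groups are therefore a description, and members' calls past a threshold are not read as a test of them. Huh7 is an established human hepatocellular carcinoma line. Both groups of 3 libraries were lentivirally transduced, the CTRL group with a control vector and the LHX2 group with a vector that expresses LHX2, a LIM-homeodomain transcription factor, and both were incubated for 48 h. The labels list the control cells as parental under modification, and the promoter of the vector is not named in them. RNA was sequenced from libraries of polyadenylated transcripts, and all libraries come from a single cell line grown under the same conditions. Nothing in the labels says that replicates were separate cultures, so the replicate error behind each p-value below is that of these 6 libraries and may be technical.

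A proteoglycan is a core protein that carries long, sulfated sugar chains called glycosaminoglycans, which are built on it in the Golgi. Versican and aggrecan are large chondroitin sulfate proteoglycans that bind hyaluronan, agrin and perlecan are heparan sulfate proteoglycans of basement membranes, lumican, biglycan and decorin are small leucine-rich proteins that bind collagen fibrils, and testicans are calcium-binding relatives of SPARC. In liver, versican, lumican, biglycan and decorin are known mainly as products of stellate cells and fibroblasts and of fibrotic matrix.

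Library totals ran from 30029313 to 39653681 counts. The LHX2 transcript itself, in replicate order, had 1, 2 and 1 counts with the control vector and 2535, 2427 and 3126 with the LHX2 vector. All 12 hepatocyte markers (albumin, alpha-fetoprotein and others) were at or above 1 CPM (counts scaled to a common library total) in every library, with summed levels of 46618 to 51798 CPM, most of it the 2 named. Of the 12, 6 fell (FGA, APOA2, SERPINA1, HNF4A, APOH and TTR) and 1 rose (TF) in the edgeR fit described below, the largest being FGA from 624 to 385 CPM. Of 11 stellate cell and fibroblast markers 3 or 4 reached 1 CPM, and THY1, POSTN and DES had 0 counts in each library. Their summed level was 32.7 to 35.4 CPM in the control and 63.3 to 65.9 CPM in the LHX2 libraries, where the collagen gene COL1A2 rose from 9.26 to 36.8 CPM and made up most of the difference. In the same list PDGFRA (17.6 and 20.8 CPM) and TAGLN (0.517 and 1.08 CPM) also rose, RGS5 had 6.24 and 5.14 CPM and did not pass, and COL3A1 went from 24 to 8 counts and PDGFRB from 22 to 4 over the groups, too few to test. Endothelial markers (5 genes) summed to 3.75 to 4.28 CPM in the control and 2.78 to 3.22 CPM in the LHX2 libraries, with CDH5, KDR and TEK at 0 counts. Macrophage markers (5 genes) summed to 9.19 to 10.7 and 17.5 to 18.5 CPM, most of it CD68, with CSF1R and CD163 at 0 counts. The part of these markers in the results below was not tested.

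Among the detected members with a promoter window, SPOCK2 and HSPG2 differed widely in base composition. The windows are RefSeq sequence of GRCh38.p14, from 250 bases before to 50 after an annotated start. They were found for 6 of the 10 genes (VCAN, SPOCK2, SPOCK3, BGN, HSPG2 and ACAN), 9 windows in all, and SPOCK1, LUM, DCN and AGRN had no entry. The 250 bases before the start of SPOCK2, on the minus strand of chr10:72089033-72089282, and before that of HSPG2, on the minus strand of chr1:21937311-21937560, are shown because these 2 genes lie at opposite ends of the differences described below. No letters are in capitals, since neither stretch holds the core motif TAAT.
SPOCK2 upstream: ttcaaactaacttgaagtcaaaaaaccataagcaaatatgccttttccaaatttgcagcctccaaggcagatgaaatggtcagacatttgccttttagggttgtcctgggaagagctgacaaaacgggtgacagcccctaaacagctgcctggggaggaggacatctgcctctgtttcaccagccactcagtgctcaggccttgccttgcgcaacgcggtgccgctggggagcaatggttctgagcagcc
HSPG2 upstream: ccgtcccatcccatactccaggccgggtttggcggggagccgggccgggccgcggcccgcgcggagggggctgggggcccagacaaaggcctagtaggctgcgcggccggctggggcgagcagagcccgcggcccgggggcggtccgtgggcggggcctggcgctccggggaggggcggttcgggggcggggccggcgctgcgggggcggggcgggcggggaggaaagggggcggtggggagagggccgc
Over the full 300 bases the HSPG2 window was 83.3% G and C with 44 CpG dinucleotides, and the window at this SPOCK2 start was 50.7% with 8. The window at the other annotated SPOCK2 start was 53.7% with 13. Which start these cells use was not tested. The medians over all 35116 promoter windows were 58.7% and 14. The VCAN window, at 60.3% with 15, lay near those medians. A link between base composition and the differences was not tested.

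LIM-homeodomain proteins are known to bind AT-rich sites with the core TAAT, and the palindrome TAATTA holds that core on both strands. TAATTA was found in 0 of the 9 windows, in 4.84% of all promoter windows and in 2.58% of those of tested genes. The core TAAT, searched on both strands as TAAT or ATTA, was found in 3 of the 9 windows, in 50.2% of all and in 38.6% of those of tested genes. The SPOCK3 windows overlap, so the 9 are not separate promoters, and SPOCK3, BGN and ACAN are not among the tested genes. The match in SPOCK2 (minus strand, chr10:72088983-72089009) is shown with the motif in capitals, since SPOCK2 is the member with the largest difference. It begins 36 bases after this annotated start, and the window at the other SPOCK2 start held no match. The core was also found in the VCAN window, at -24 from its annotated start, and in a window of SPOCK3, at 22.
SPOCK2 match: aacgaagccacccATTAcggtagagcc
A match of these letters is no evidence of binding, and distal sites were not analysed here.

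Of the 10 genes 5 had enough counts to be tested with all others in the edgeR quasi-likelihood fit of 14533 genes: VCAN, SPOCK2, LUM, AGRN and HSPG2. Each passed the filter on low counts with counts in both groups. All 5 lay past an adjusted p of 0.05 on the higher side and 0 on the lower side, where 16.6% of all tested genes were higher and 15.8% lower. Every LHX2 library exceeded every control library for 3 of the 5, which held for 22.9% of all tested genes. Because the genes were chosen with this contrast in view, nothing is read from these counts. In a bulk sample, more expressing cells and more RNA per cell cannot be told apart.

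**Figure D1:**
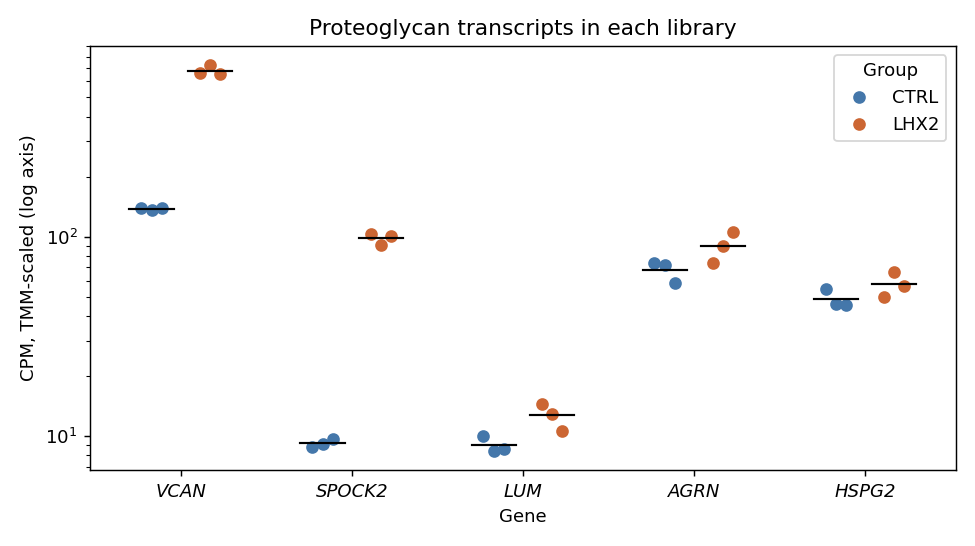
TMM-scaled CPM (log axis) of the 5 detected proteoglycan genes in each library, with control libraries in blue, LHX2 libraries in orange and the group mean as a line. VCAN and SPOCK2 are separated widely between the groups, LUM narrowly, and the groups overlap for AGRN and HSPG2.

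VCAN, on chromosome 5 from position 83471744 to 83582302 of GRCh38, is the large hyaluronan-binding proteoglycan of provisional matrix. In replicate order, its level was 139, 135 and 139 CPM with the control vector and 663, 723 and 651 CPM with LHX2. The groups were far apart, and the lowest LHX2 library held more than 4 times the level of the highest control library. The means were 138 ± 2.2 and 679 ± 38.9 CPM (SD, n = 3), a 4.93-fold difference or 2.3 ± 0.05 (SE) on the log2 scale. Ranked by CPM over the 28265 genes of the table, VCAN moved from place 1565 to place 159. The counts do not separate versican's splice forms, which differ in the stretches that carry chondroitin sulfate. VCAN-AS1, an annotated gene on the opposite strand within VCAN, had 0 counts in all libraries.

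SPOCK2, which encodes testican-2 (chromosome 10, 72059034 to 72089032), had 8.82, 9.14 and 9.67 CPM in the control and 103, 91.0 and 101 CPM in the LHX2 libraries. All 3 LHX2 libraries lay at about 10 times the control level. Its log2 fold change of 3.42 ± 0.06 (SE) exceeded that of 99.9% of the tested genes, and that of VCAN exceeded 99.7%. The other testican genes stayed near 0 in both groups: SPOCK1 (testican-1) had 1 count over the control and 2 over the LHX2 libraries, and SPOCK3 (testican-3) had 1 and 0. The difference between the groups in this family therefore came from SPOCK2.

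LUM, the keratan sulfate proteoglycan lumican (chromosome 12, 91102629 to 91111494), had 10.0, 8.40 and 8.62 CPM in the control and 14.4, 12.9 and 10.6 CPM in the LHX2 libraries. The lowest LHX2 library, replicate 3, lay just above the highest control library, replicate 1. The log2 fold change was 0.49 ± 0.11 (SE), and it was 0.38 without LHX2 replicate 1 and 0.60 without LHX2 replicate 3. The related genes BGN and DCN were at the floor. BGN had 3 counts over the control and 3 over the LHX2 libraries, and DCN had 1 and 0. BGN overlaps HAUS7 on the opposite strand in the annotation, and the strand setting of the counting is not given in the sources used here. ACAN, the cartilage proteoglycan aggrecan, had 0 counts in each of the 6 libraries, which allows a level of up to 0.0757 to 0.0999 CPM (3 counts of a library's total, counting error only).

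The small leucine-rich genes around LUM lie in a cluster on chromosome 12, of which LUM and EPYC had enough counts to be tested. EPYC, which encodes the cartilage proteoglycan epiphycan 97.7 kb from LUM, had 1 count in each control library and 17, 12 and 15 in the LHX2 libraries. The ratio of its summed counts, 44 to 3 and scaled by the totals, was 16.2, and its 95% limits by counting error alone were 5.18 and 81.3 (exact binomial). EPYC met the filter on low counts only through the LHX2 libraries, so its call (edgeR adjusted p = 0.00011) is in part set by that filter. Between them lies KERA, the gene of the corneal proteoglycan keratocan, which had 0 counts in all libraries, and DCN lies 29 kb from LUM on the other side. Levels of EPYC remained low, at 0.459 ± 0.0935 CPM (SD, n = 3) with LHX2.

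AGRN, which encodes the basement membrane proteoglycan agrin (chromosome 1, 1020120 to 1056116), had 73.5, 71.7 and 58.6 CPM in the control and 73.3, 89.6 and 105 CPM in the LHX2 libraries. The groups overlapped, since LHX2 replicate 1 lay below control replicate 1. The log2 fold change was 0.40 ± 0.10 (SE). It was 0.26 without LHX2 replicate 3 and 0.52 without LHX2 replicate 1. DESeq2 gave 0.39 and did not call the gene. HSPG2, the perlecan gene (chromosome 1, 21822244 to 21937310), had 54.4, 46.1 and 45.2 CPM in the control and 49.5, 66.4 and 56.5 CPM in the LHX2 libraries. Here too the groups overlapped. Its log2 fold change of 0.24 ± 0.09 (SE) stood at the edge of the threshold. The call was lost with control replicate 2 (0.21) or 3 (0.19) left out and with LHX2 replicate 2 left out (0.13), and the sign turned (-0.13) once each library's dependence on the length and GC content of transcripts was taken out.

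The spread of AGRN between replicates was wide for its level. Its coefficient of variation over the LHX2 libraries was 18.0%, above 99.8% of the 2943 tested genes with a mean of 50 to 150 CPM, whose median was 3.83%. AGRN and HSPG2 have long, GC-rich transcripts (7394 bases with 67.5% G and C, and 14327 bases with 64.5%). For 193 other genes with a longest transcript of at least 5 kb and at least 60% G and C, limits set after AGRN was seen, the median deviation from the gene mean was lowest in control replicate 3 (-0.13, log2 CPM) and highest in LHX2 replicate 3 (0.16). AGRN was lowest and highest in these libraries as well, with -0.40 and 0.45. HSPG2 was lowest in control replicate 3 (-0.22) and highest in LHX2 replicate 2 (0.34). In LHX2 replicate 2 that median was 0.05, and the trend fitted to other genes at the length and GC content of HSPG2 was 0.31. Of the 193 genes 36.3% were called higher and 3.63% lower, and their median log2 fold change was 0.15 beside 0.01 over all tested genes. With the trend removed the log2 fold change of AGRN was 0.17. VCAN (42.9% G and C) and SPOCK2 (58.3%) moved less under the same step, to 2.18 and 3.32, and LUM (36.3%) had 0.52. The part of length and GC content in the differences of AGRN and HSPG2 was not tested further.

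**Figure D2:**
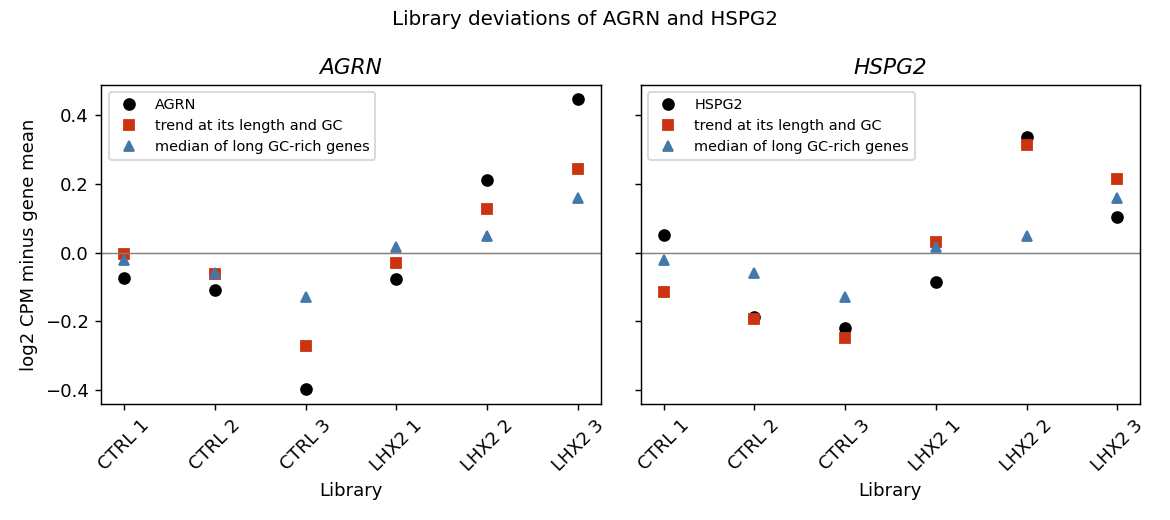
Deviation of log2 CPM from the gene's mean over the 6 libraries for AGRN (left) and HSPG2 (right) as circles, the trend fitted to the other genes at the same transcript length and GC content as squares, and the median of 193 other long, GC-rich genes as triangles. AGRN, its trend and the median are lowest in control replicate 3 and highest in LHX2 replicate 3. The HSPG2 trend is lowest in control replicate 3 and highest in LHX2 replicate 2. The HSPG2 circles lie near the trend squares in 3 of 6 libraries (control replicates 2 and 3 and LHX2 replicate 2).

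**Figure D3:**
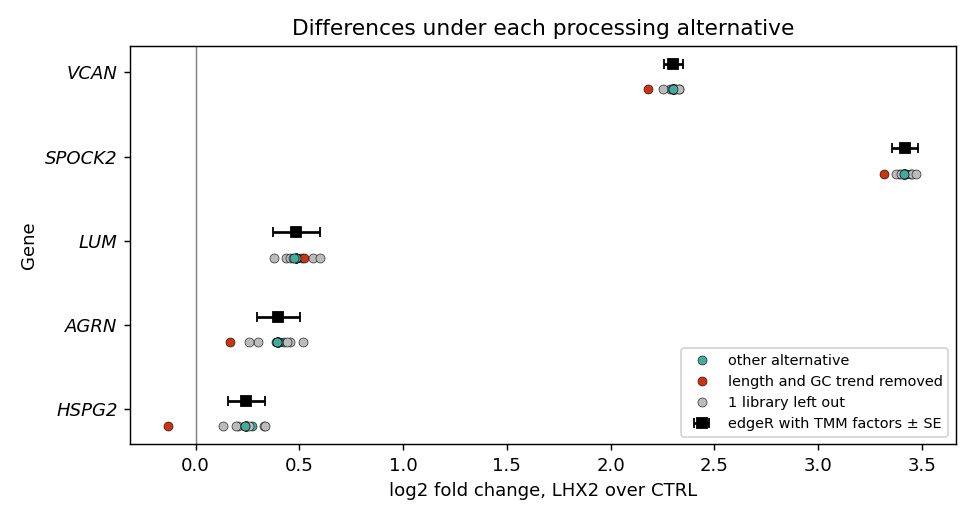
Log2 fold change of LHX2 over control for each detected gene: the black square is the edgeR estimate with TMM factors (bar: SE), and the circles are the processing alternatives. All alternatives for VCAN and SPOCK2 lie between 2.18 and 3.47, far from 0, whereas HSPG2 reaches -0.13 with the length and GC trend removed.

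Levels of different genes were compared per kilobase of the longest annotated transcript. In the control group VCAN (10.9 ± 0.174 CPM per kb, SD, n = 3) and AGRN (9.19 ± 1.09) led. HSPG2 (3.39 ± 0.356), LUM (3.0 ± 0.292) and SPOCK2 (1.69 ± 0.0791) followed. HSPG2 and LUM did not differ beyond their spread, and LUM came before HSPG2 (2.68) when the union of all exons served as length. In the LHX2 group the order was VCAN (53.8 ± 3.08 CPM per kb), SPOCK2 (18.1 ± 1.21), AGRN (12.1 ± 2.17), LUM (4.21 ± 0.633) and HSPG2 (4.01 ± 0.590), again with no separation of the last pair. SPOCK2 thus moved from the lowest of the 5 to the second place.

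The summed level of the 10 genes went from 28.2 ± 1.49 to 92.2 ± 2.70 CPM per kb (SD, n = 3). VCAN made up 38.7 ± 2.07% of that sum in the control and 58.3 ± 2.08% in the LHX2 libraries. SPOCK2 went from 6.02 ± 0.597% to 19.6 ± 1.86%, and AGRN from 32.5 ± 2.55% to 13.1 ± 2.26%, although its own level was not lower. The CPM per kb of VCAN was 6.80, 6.38 and 6.18 times that of SPOCK2 in the control libraries and 2.77, 3.43 and 2.78 times in the LHX2 libraries.

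**Figure D4:**
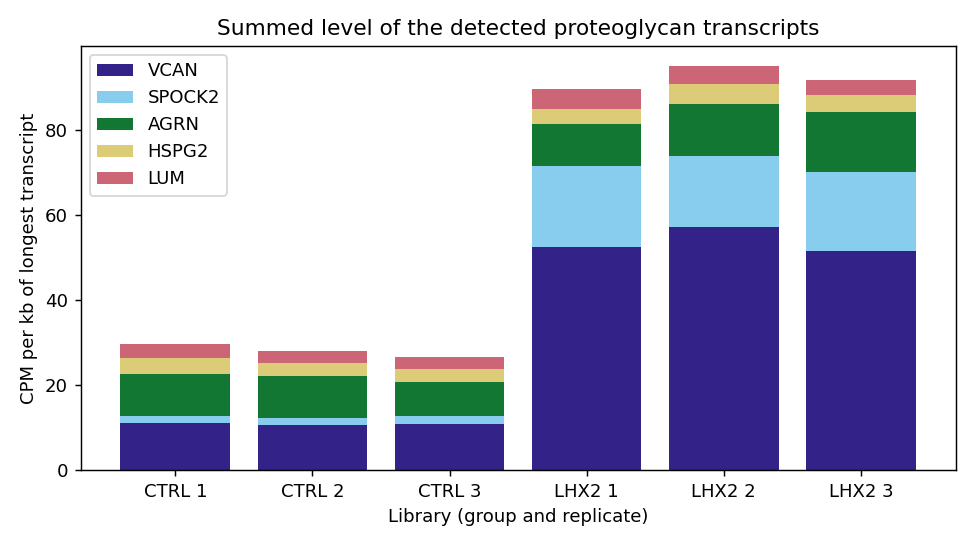
Stacked level of the 5 detected proteoglycan genes in each library, in CPM per kb of the longest transcript. The LHX2 libraries stand between 89.7 and 95.1 and the control libraries between 26.7 and 29.7, and the VCAN and SPOCK2 segments make up most of the difference.

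The genes with profiles most like VCAN and SPOCK2 were sought among the 10383 tested genes that averaged 5 CPM or more, by Euclidean distance of mean-centred log2 CPM over the 6 libraries. Nearest to VCAN were the glucose transporter gene SLC2A2 (distance 0.19), the neurotensin gene NTS (0.19), the semaphorin gene SEMA3D (0.27), the zinc-finger gene CASZ1 (0.33) and the prostaglandin transporter gene SLCO2A1 (0.39). Of these SEMA3D went from 40.9 ± 0.788 to 174 ± 8.96 CPM (SD, n = 3). Nearest to SPOCK2 was SH3BP5 (0.19), from 9.25 ± 0.467 to 108 ± 7.59 CPM, and then with a gap ZPLD1 (0.57), FSTL1 (0.80), VLDLR (0.90) and LRRC31 (0.99). With 2 groups, such a distance mostly reflects the size of the group difference.

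SPOCK2 has close neighbours that also differed. CHST3, the chondroitin 6-O-sulfotransferase gene, ends 45.5 kb from it (chromosome 10, 71964395 to 72013558). It had 31.0, 30.3 and 29.4 CPM in the control and 49.5, 48.8 and 50.1 CPM in the LHX2 libraries, a rise of 1.64-fold (edgeR adjusted p = 4.1e-08). Within 250 kb of SPOCK2, a window chosen after the values were seen, 6 of 7 tested genes were called higher, beside 16.6% of all tested genes. The same window held 4 higher and 1 lower of 18 tested genes around AGRN, and 0 higher and 1 lower of 4 around HSPG2. Around VCAN and around LUM it held 1 higher of 1 tested gene (XRCC4 and EPYC). Around DCN it held 2 higher of 2, LUM and EPYC. The 6 near SPOCK2 were ASCC1 (log2 fold change 0.31), CHST3 (0.71), ANAPC16 (0.19), DDIT4 (0.38), PSAP (0.15) and DNAJB12 (0.18), while CDH23 (0.16) did not pass. Apart from CHST3 and SPOCK2 these differences were small, and 4 were called without control replicate 1 or control replicate 2. VCAN's tested neighbour XRCC4 had a log2 fold change of 0.21 and was called higher (edgeR adjusted p = 0.040). HAPLN1, 55.5 kb from VCAN, encodes a link protein that holds versican on hyaluronan. It had 2 counts over the control and 1 over the LHX2 libraries.

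Enzymes, partners and relatives of the proteoglycans were counted in 10 lists of 127 genes, of which 85 were tested. In the same fit 17 rose, 14 fell and 54 did not pass, shares near those of all tested genes, and the median log2 fold change was 0.08 beside 0.01. With library totals alone 22 rose and 12 fell. The lists are described below by step of synthesis.

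The tetrasaccharide linker that joins chain to core protein showed no called change. Of its 6 tested enzyme genes 0 passed at an edgeR adjusted p of 0.05, 0 had an unadjusted p under 0.05, and 0 passed with DESeq2 or limma-voom, while 1 was lower with the length and GC trend removed. The most abundant, the xylose kinase gene FAM20B, had 93.1 ± 5.70 and 97.5 ± 3.33 CPM (SD, n = 3). Among chondroitin and dermatan sulfate enzymes 5 of 14 rose and 9 did not pass, with a median of 0.16. DSEL, a dermatan sulfate epimerase-like gene, rose 2.53-fold from 1.28 ± 0.252 to 3.25 ± 0.338 CPM (edgeR adjusted p = 4.4e-05). CHST3 rose as given above, and the 6-O-sulfotransferase gene CHST7 (log2 fold change 0.66) and CHST15 (0.30), which sulfates chondroitin further, also passed. CHST7 did not pass without control replicate 3 (0.62) or LHX2 replicate 2 (0.52). CHST15 kept its call without control replicate 2 or LHX2 replicate 1, and lost it without control replicate 1 (0.34), without LHX2 replicate 2 (0.29), with LHX2 replicate 3 left out (0.26) and with control replicate 3 left out (0.19). The list had 3 higher without control replicate 3 or LHX2 replicate 2, and 1 lower without control replicate 3 or LHX2 replicate 3. The chain-building synthase genes CHSY1 (0.08), CHSY3 (0.08), CHPF (0.08) and CHPF2 (0.05) did not pass.

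Of 13 heparan sulfate enzymes 4 rose, 3 fell and 6 did not pass. EXT1, a subunit of the heparan sulfate polymerase, had 36.7 ± 0.439 CPM with the control vector and 66.0 ± 2.61 CPM with LHX2 (SD, n = 3), a rise of 1.80-fold with an edgeR adjusted p of 4.3e-09. The gene of its partner subunit, EXT2, rose by 0.22 on the log2 scale, and NDST1, which starts sulfation of the chain, by 0.29. The 6-O-sulfotransferase gene HS6ST1 rose by 0.32 on the log2 scale. Both called 3-O-sulfotransferase genes fell, HS3ST5 from 2.28 ± 0.433 to 0.944 ± 0.0642 CPM and HS3ST3B1 from 34.8 ± 0.911 to 24.7 ± 1.15 CPM, with log2 fold changes of -1.28 and -0.49. Their relative HS3ST3A1 (0.20) did not pass. HS2ST1 also fell, from 258 ± 5.30 to 227 ± 9.41 CPM (log2 fold change -0.18).

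For keratan sulfate, the chain of lumican, 1 of 6 enzymes rose and 2 fell. CHST6 (0.46) lost its call with control replicate 1 left out (0.46), with control replicate 2 left out (0.41) and with LHX2 replicate 2 left out (0.42). B3GNT2 (-0.22) did not pass without control replicate 1 (-0.19) or LHX2 replicate 2 (-0.17), nor B4GALT1 (-0.14) without control replicate 2 (-0.13) or LHX2 replicate 2 (-0.11). With control replicate 1 or 2 left out, 0 genes of the list were higher and 1 was lower, and with LHX2 replicate 2 left out 0 were called. Of 12 tested genes for sugar and sulfate donors 1 was higher, 4 were lower and 7 did not pass, with a median near 0. UGDH, which makes the UDP-glucuronate that all chains except keratan sulfate need, fell from 232 ± 6.99 to 190 ± 9.93 CPM (edgeR adjusted p = 0.00014). The nucleotide sugar transporter gene SLC35D1 fell by 0.19 on the log2 scale, and the sulfate donor synthase gene PAPSS1 fell by 0.16. The sulfate transporter gene SLC26A2 rose by 0.24. PAPSS1 did not pass without control replicate 3 (-0.13), nor SLC26A2 without control replicate 1 (0.17), LHX2 replicate 1 (0.22) or LHX2 replicate 2 (0.20), where the list had 0 higher. Without control replicate 3 it had 2 higher and 2 lower.

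Partners of versican were mostly low or did not pass. Of 13 hyaluronan and versican partners 6 were tested and 1 rose. It was FBN1, the gene of the microfibril protein fibrillin-1, with 30.7 ± 0.758 CPM with the control vector and 41.6 ± 4.41 CPM with LHX2 (SD, n = 3), and an edgeR adjusted p of 0.00017. The hyaluronan synthase genes were low, with HAS2 at 0.498 and 0.678 CPM, HAS3 at 0.947 and 0.755 CPM and HAS1 at 0 counts. The hyaluronan receptor gene CD44 had 2.78 and 2.42 CPM, and the fibulin-1 gene FBLN1 had 67.4 and 71.2 CPM. Without LHX2 replicate 2 the list had 2 higher. Of 8 tested turnover genes 1 fell, the versican-cleaving protease gene ADAMTS9, by 0.32 on the log2 scale, while the related ADAMTS1 had 48.5 and 51.4 CPM and did not pass.

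Of 7 tested partners of agrin and perlecan 1 rose and 2 fell. LRP4, the agrin receptor gene, had 19.1 ± 1.71 CPM with the control vector and 14.8 ± 1.35 CPM with LHX2 (SD, n = 3), a fall with an edgeR adjusted p of 0.0049. The laminin genes LAMB1 (0.18) and LAMC1 (-0.13) went in opposite directions, and LAMC1 did not pass without control replicate 2 (-0.13). The list then had 1 lower, and without LHX2 replicate 2 it had 2 higher. The dystroglycan gene DAG1 (0.10) did not pass.

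Among 4 tested SPARC-family relatives of the testicans, FSTL1, the follistatin-like 1 gene, rose 7.16-fold. It had 3.60, 3.09 and 3.27 CPM in the control and 25.7, 24.3 and 21.2 CPM in the LHX2 libraries (edgeR adjusted p = 3.7e-11). The SPARC gene itself had 5.31 and 5.27 CPM, and SMOC1 (0.16) did not pass, although the list had 2 higher without LHX2 replicate 3. Of 24 other secreted proteoglycans 9 were tested, and 3 rose, 2 fell and 4 did not pass. AMBP, whose product includes bikunin, a plasma chondroitin sulfate proteoglycan made by hepatocytes, rose from 1689 ± 97.4 to 2459 ± 142 CPM (SD, n = 3, adjusted p = 1.9e-06 with edgeR). COL18A1, the gene of collagen XVIII, a basement membrane heparan sulfate proteoglycan, rose 1.48-fold. Its transcript is also long and GC-rich (67.2% G and C), and its level was highest in LHX2 replicate 3, as for AGRN. EPYC rose as given above. The fibromodulin gene FMOD fell from 0.696 ± 0.150 to 0.275 ± 0.0823 CPM, with 26, 30 and 17 counts in the control and 8, 6 and 13 in the LHX2 libraries. FMOD met the filter on low counts only through its control counts, so its call is in part set by that filter. PODN, another small leucine-rich gene, fell by 0.50 on the log2 scale. PODN lost its call with either control replicate 1 or 2 left out, and likewise LHX2 replicate 2 or 3, and 1 gene of the list was then lower.

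**Figure D5:**
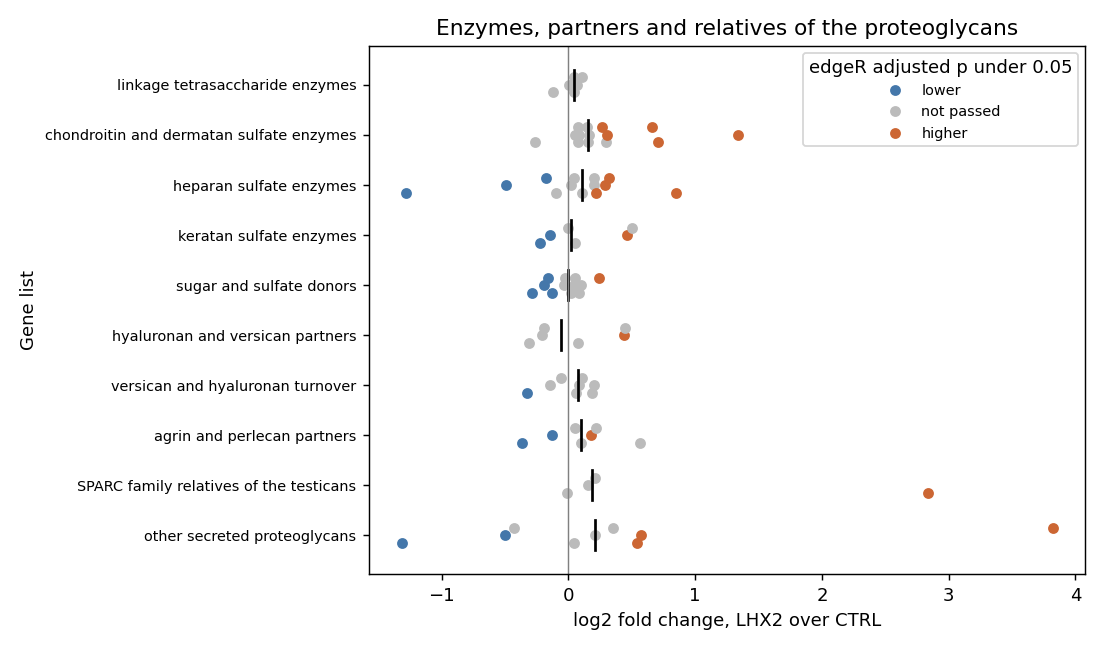
Log2 fold change of LHX2 over control for the 85 tested genes of the 10 lists, coloured by the call at an edgeR adjusted p of 0.05, with the list median as a vertical line. Most points lie near 0, and FSTL1 (2.84) and EPYC (3.82, from 3 control counts in all) stand apart on the right.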

How the data were processed

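Per the submitters' processing notes, reads were aligned to GRCh38/hg38, and the tools named are featureCounts 2.0.0, TopHat2 2.1.1, SAMtools 1.9, Bowtie2 2.3.5.1, FastQC and bcl2fastq 2.20. Which annotation and strand setting the counting used is not stated. The deposited table holds raw counts of reads per gene. The control column whose name has another form was taken as replicate 1 by its final number.

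Genes were kept with filterByExpr of edgeR (min.prop 0.7, min.count 10, min.total.count 15), libraries were scaled with TMM factors (0.985 to 1.02), and genes were tested with the edgeR 4.0.16 quasi-likelihood F-test in R 4.3.3 with group as the single term and Benjamini-Hochberg adjustment over 14533 genes at 0.05. SEs come from the F statistic. CPM are TMM-scaled, and log2 CPM used a prior count of 2. Lengths are those of the longest GENCODE release 29 transcript, with 1361 genes unmatched, and positions are RefSeq. On simulated counts over 14359 genes the test called 19 of 50 genes at a 1.2-fold change, 38 of 50 at 1.5-fold, 47 of 50 at 2-fold, 48 of 48 at 4-fold, and 8 of 14161 without a change.

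The members and lists were chosen with earlier results of these data known. Text names all members, up to 4 passing genes per list with the largest changes (the most abundant where none passed), and the 5 nearest profiles of VCAN and SPOCK2. Neighbours of SPOCK2, VCAN and LUM, marker genes, EXT2, NDST1, HS2ST1, PODN and list genes given as not passing or not detected were named after their values were seen. Alternatives were other scalings and filters, a replicate block, DESeq2 1.42.0, limma-voom (limma 3.58.1), each library left out, and removal of a loess trend (span 0.3) with transcript length and GC content. The trend was fitted to deviations from the gene mean over both groups, so it can hold a group difference. Figures used Python 3.11.15 and matplotlib 3.10.9.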

Additional observations from a re-analysis of the deposited data

How the results depend on the processing

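VCAN, SPOCK2 and LUM kept their direction and call under all 16 alternatives, with log2 fold changes of 2.18 to 2.33, 3.32 to 3.47 and 0.38 to 0.60. AGRN ranged from 0.17 to 0.52 and lost its call with DESeq2. HSPG2 kept direction and call in 6, lost the call in 9 and turned to -0.13 with the length and GC trend removed. The number of detected members called higher was 3 with DESeq2 and 4 to 5 with a library left out. Since the members were chosen with this contrast known, their kept and lost calls describe dependence on processing and lend the differences no support. The genes called across the table numbered 3549 to 4567 with a library left out and 3768 with the replicate block, in place of 4716, and calls in the lists ran from 14 to 17 higher and from 10 to 14 lower. Over the other alternatives the lists had 15 to 22 higher (22 with library totals alone) and 11 to 17 lower (17 with the length and GC trend removed). For the 25 called list genes that the naming rule gave, 373 recalculations kept the call and 25 lost it. EPYC and FMOD, under 1 CPM in every library, were not tested where at least 1 CPM in 3 libraries was required. PODN, named outside the rule, lost its call with any of 4 libraries left out, with DESeq2 and with the block. The promoter windows with a match numbered 3 with the core TAAT and 0 with TAATTA. Same-numbered libraries did not deviate together (correlations -0.17, -0.16 and -0.38), and 0 of 6 libraries correlated best with their own number. With the block HSPG2, CHST6, CHST15 and B4GALT1 lost their calls. The SPOCK2 neighbours called higher numbered 4 to 6 under alternatives chosen after seeing the data. Depth leaves SPOCK1, SPOCK3, BGN, DCN and ACAN, at 3 or fewer counts per group, without a measurable difference.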
